A study of Homo sapiens with 21 samples.

Results

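The genes of cholesterol and fatty acid synthesis were followed in the human ovarian cancer line HEY after transfection with mir-429. The group was chosen by name and holds 34 genes, of which 31 could be read from the arrays, out of 19775 genes with a probe set. It comprises 18 enzymes of the sterol branch, 8 of the fatty acid branch, 5 regulators, and STARD4, AACS and LPIN1, which carry sterols or feed and use lipid precursors. A gene was read through its brightest probe set among those annotated with a single gene symbol. FDFT1, CYP51A1 and FADS1, which make squalene, remove a sterol methyl group and desaturate fatty acids, had no such probe set and have no value here. The branches were thus read through 16 sterol and 7 fatty acid enzymes. All 31 genes passed the filter on low signal, which asked for a signal above the array median on at least 3 arrays, and 29 of them lay above it on all 21 arrays. MVD did so on 18 and TM7SF2 on 19.

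There were 7 groups of 3 arrays. HEY cells given mir-429 were sampled at 24, 48 and 144 h, cells given a control miRNA at the same times, and untransfected cells at 0 h only. The control arm is labelled only as synthetic miRNA, and it was taken to be the negative control miRNA that the treatment protocol and the series design name, a reading on which every comparison of mir-429 with control rests. Both miRNAs went in with a lipid reagent into cells growing in medium with bovine serum. The line is the only model, and no cells given the reagent alone are among the groups. In comparisons with untransfected cells, the reagent, the control miRNA and the hours in culture therefore cannot be told apart. Replicates are labelled biological, but the labels do not say which steps were done separately, and p-values here cover the spread among these arrays and nothing wider.

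Cholesterol is built from acetyl-CoA through mevalonate, isoprenoids, squalene and lanosterol, and fatty acids are built from the same precursor through malonyl-CoA. Both branches are driven by the SREBP transcription factors, which are held in the endoplasmic reticulum with the escort protein SCAP while INSIG proteins and sterols are abundant. When sterols are scarce SCAP carries SREBP to the Golgi, where it is cleaved and freed to enter the nucleus. SREBF1 is best known for fatty acid genes and SREBF2 for sterol genes. mir-429 belongs to the miR-200 family, which represses mRNAs that pair with its seed.

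The transfected miRNA shares its seed with the 2 relatives printed under it, which is why their RefSeq mature sequences are set side by side, with the seed (bases 2 to 8) in capitals. The labels do not give the sequence of the transfected molecule, so these are the natural forms. hsa-miR-429 lies at chr1:1169055-1169076 on the plus strand of GRCh38.p14.
hsa-miR-429: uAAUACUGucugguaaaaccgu
hsa-miR-200b-3p: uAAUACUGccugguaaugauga
hsa-miR-200c-3p: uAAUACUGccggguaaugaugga
All 3 carry the same 7 seed bases, and they differ in the part after the seed.

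Promoters are shown for 3 of the 4 members that were higher with mir-429 at 144 h, as the 250 bases before the RefSeq start (GRCh38.p14, plus strand). They are SREBF2 (chr22:41832855-41833104), INSIG1 (chr7:155297628-155297877) and HSD17B7 (chr1:162790452-162790701). ACSS2, the fourth, has several RefSeq starts. Capitals mark TCACNCCAC, the classical sterol regulatory element, and CCAAT, the box bound by NF-Y, on either strand.
SREBF2: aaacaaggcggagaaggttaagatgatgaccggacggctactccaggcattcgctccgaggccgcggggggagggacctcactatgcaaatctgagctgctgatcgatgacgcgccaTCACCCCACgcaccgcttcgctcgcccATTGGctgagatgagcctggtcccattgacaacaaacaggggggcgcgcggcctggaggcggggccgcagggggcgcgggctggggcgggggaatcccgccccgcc
INSIG1: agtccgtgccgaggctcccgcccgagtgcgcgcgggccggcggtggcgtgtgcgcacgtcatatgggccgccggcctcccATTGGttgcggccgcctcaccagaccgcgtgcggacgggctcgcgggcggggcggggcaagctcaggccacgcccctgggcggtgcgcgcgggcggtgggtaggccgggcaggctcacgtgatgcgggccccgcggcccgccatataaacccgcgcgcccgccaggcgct
HSD17B7: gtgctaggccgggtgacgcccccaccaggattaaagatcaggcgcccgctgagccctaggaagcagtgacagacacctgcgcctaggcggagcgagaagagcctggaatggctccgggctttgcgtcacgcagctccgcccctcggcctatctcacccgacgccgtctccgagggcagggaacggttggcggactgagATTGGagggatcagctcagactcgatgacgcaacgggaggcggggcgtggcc
The SREBF2 window held TCACCCCAC at 133 bases before the start and a reversed CCAAT at 106. Of the 31 members read, 28 matched the promoter table, with 41 windows, and ACAT2, FASN and SQLE did not. TCACNCCAC was found in 1 of the 41 windows, that of SREBF2, and in 0.88% of all 35116 promoters in the table. CCAAT was found in 24 windows of 20 members, against 32.01% of all promoters. GGGCGG, the box bound by SP1, was found in 36 windows of 27 members, against 42.64% of all promoters. CACGTG, the E box, was found in 4 windows of 3 members, against 6.34%. These are matches of letters on either strand and not measured binding.

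Values are log2 signals as deposited, so a difference of 1 is a 2-fold change, and levels are set side by side only within a gene. A gene was called where limma's adjusted p lay under 0.05 over the 12879 genes tested. Array medians ran from 3.95 to 4.29, the lowest being mir-429 144 h replicate 1. As a sign of RNA quality, the mean of 3' minus 5' signal over GAPDH and ACTB control probe sets was 2.54 to 3.25 in mir-429 and 4.0 to 4.43 in control arrays at 24 h. At 48 h it was 8.45 to 8.73 in mir-429 and 7.23 to 8.47 in control arrays. At 144 h it was 3.22 to 3.49 in mir-429 and 3.39 to 4.31 in control arrays, and it was 2.79 to 3.76 in untransfected cells. The line's markers KRT7, KRT8, KRT18, VIM, PAX8 and WT1 lay above the median on all 21 arrays, and MUC16 on 0. Of 14 markers of leukocytes, endothelium, fat and liver with a probe set, 7 lay above it on no array, among them PTPRC, CD3E, ADIPOQ and ALB. Endothelial CDH5 and APOA1, a liver apolipoprotein, lay above it on all 21, FABP4, a fatty acid carrier of fat cells, on 20, PECAM1 on 3, and CD14, VWF and TTR on 1 each.

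Against untransfected cells, both branches were lower at 24 h and lowest at 48 h in either transfected arm, and at 144 h they lay near the starting level. For each array the median change of a branch from the untransfected mean was taken. The sterol median was -0.26 to -0.13 on mir-429 and -0.36 to -0.26 on control arrays at 24 h. At 48 h the sterol median was -0.96 to -0.80 on mir-429 and -0.88 to -0.73 on control arrays, where the median of all genes tested was -0.18 to -0.15 on mir-429 and -0.20 to -0.10 on control arrays. By 144 h it stood at 0.14 to 0.24 on mir-429 and at -0.13 to -0.01 on control arrays, so that the arms separated at that time. The fatty acid median was -0.52 to -0.31 on mir-429 and -0.32 to -0.24 on control arrays at 24 h. At 48 h it was -0.99 to -0.56 on mir-429 and -0.73 to -0.60 on control arrays, which overlapped. At 144 h it was -0.08 to 0.07 on mir-429 and -0.10 to -0.05 on control arrays, again overlapping. These medians are descriptions of the members and carry no test. Because an array reads a whole culture, fewer expressing cells and less RNA per cell cannot be told apart.

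**Figure D1:**
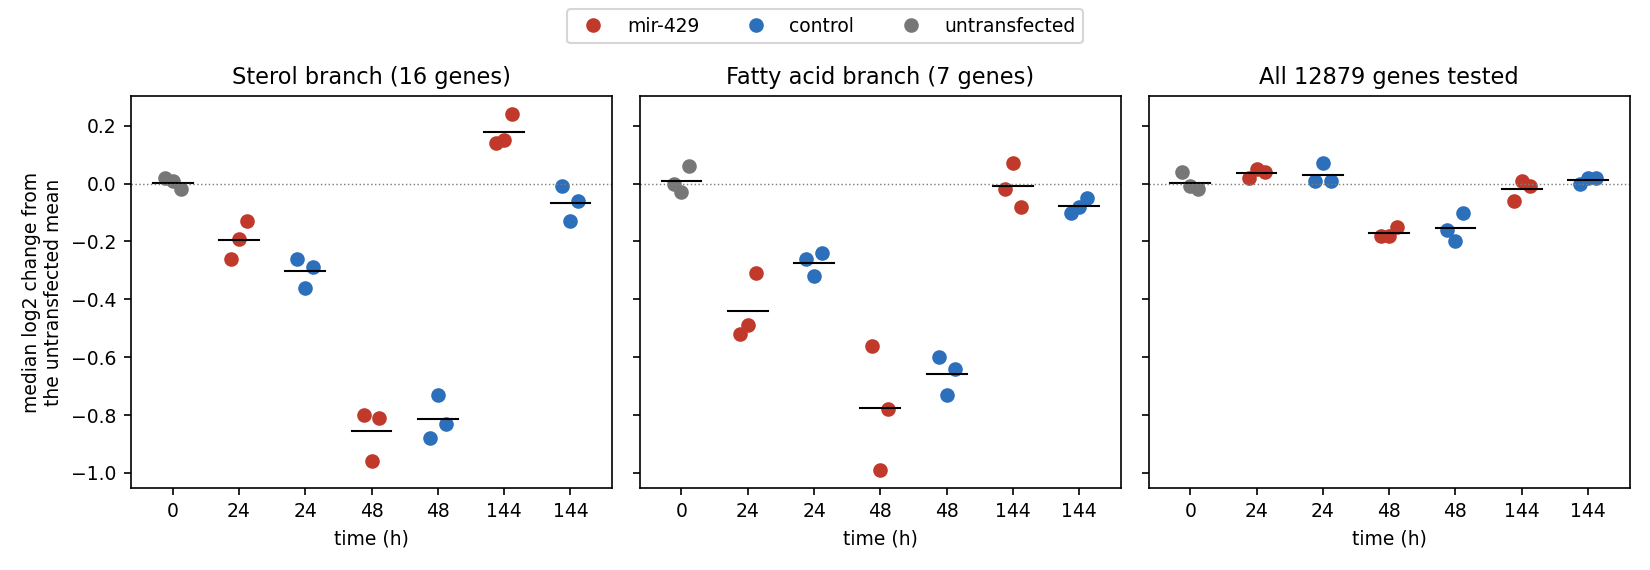
Median log2 change from the untransfected mean (vertical axis) over 16 sterol genes, 7 fatty acid genes and all 12879 genes tested, by time in hours. Each point is an array, lines are means of 3 arrays, and colours stand for mir-429, control and untransfected cells. Both branches are lowest at 48 h, and only the sterol panel has the mir-429 arrays clear of the control arrays at 144 h, at 0.14 to 0.24 against -0.13 to -0.01.

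The test against untransfected cells gave these counts. In mir-429 cells at 24 h, 12 of 31 members were lower and 0 higher, against 11.3% and 11.7% of all genes tested. At the looser unadjusted p under 0.05, 17 were lower and 1 higher, against 16.1% and 18.1% of all genes. In control cells at 24 h, 15 were lower and 2 higher, against 19.8% and 18.3% of all genes. At 48 h 21 members were lower and 3 higher in mir-429 cells, against 37.5% and 19.1% of all genes. In control cells at 48 h 21 were lower and 2 higher, against 36.1% and 18.4% of all genes. With the 3' minus 5' signal as a covariate, the 48 h counts went to 0 in both arms and the control count at 24 h to 10. The covariate also left few calls among all genes at 48 h, 0.559% in either direction in mir-429 cells and 0.59% in control cells, and left 16.4% in control cells at 24 h. With it the median change of all genes in control cells at 48 h was -0.22, against -0.16 without it. At 48 h in both arms, and in control cells at 24 h, the signal did not overlap that of untransfected arrays. The fit thus separates signal and group poorly, and the part of RNA quality in the lost calls was not tested. At 144 h 6 members were higher and 0 lower in mir-429 cells, against 6.62% and 12.3% of all genes, with 7 higher and 0 lower at an unadjusted p under 0.05, against 13.0% and 20.2% of all genes at that p. In control cells at 144 h limma called 0 higher and 0 lower, against 0.28% and 0.194% of all genes, and 1 higher and 2 lower passed an unadjusted p under 0.05, against 7.31% and 7.02% of all genes. Both arms are set against the same 3 untransfected arrays.

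Among the members lower in control cells at 48 h were 13 of the 16 sterol enzymes, against 36.1% of all genes. PMVK, the second kinase of the mevalonate steps, was at -1.92 ± 0.26 (SE, limma adjusted p = 8.45e-06). FDPS, which makes farnesyl pyrophosphate, was at -1.18 ± 0.10 (SE, limma adjusted p = 3.74e-08). LSS, which closes squalene epoxide into lanosterol, was at -1.04 ± 0.15 (SE, limma adjusted p = 2.09e-05). The probe sets used did not all fall. NSDHL, a dehydrogenase of sterol demethylation, was higher, at 0.33 ± 0.11 (SE, limma adjusted p = 0.023), and so was AACS, at 0.35 ± 0.13 (adjusted p = 0.033). SQLE, the squalene epoxidase, was at 0.31 ± 0.14 (SE, limma adjusted p = 0.0654), and DHCR7, which makes cholesterol in the last step of one route, at -0.17 ± 0.13 (SE, limma adjusted p = 0.299). Size and direction depended on the probe set. In this comparison a second probe set of DHCR7 changed by -1.42 and a second one of NSDHL by -0.76, and 3 others of SQLE by 0.95, -0.44 and 0.77. The EBP probe set used changed by -1.10, and 2 dimmer EBP probe sets by -5.59 and -4.38. At 144 h the members higher in mir-429 than in untransfected cells were SREBF2 at 0.53 ± 0.12, IDI1 and AACS at 0.50 ± 0.10 and 0.50 ± 0.13, ACSS2 at 0.48 ± 0.13, INSIG1 at 0.44 ± 0.13 and DHCR7 at 0.43 ± 0.13 (limma adjusted p from 0.00339 to 0.0332). That count was 2 without untransfected replicate 2 or 3 and 3 without mir-429 144 h replicate 1 or 3, and the 24 h count of mir-429 cells was 7 without untransfected replicate 1. Without untransfected replicate 3, all genes at 144 h were 374 higher and 977 lower, against 852 and 1582. Without untransfected replicate 1, all genes at 24 h were 1278 higher and 1087 lower, against 1513 and 1453.

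**Figure D2:**
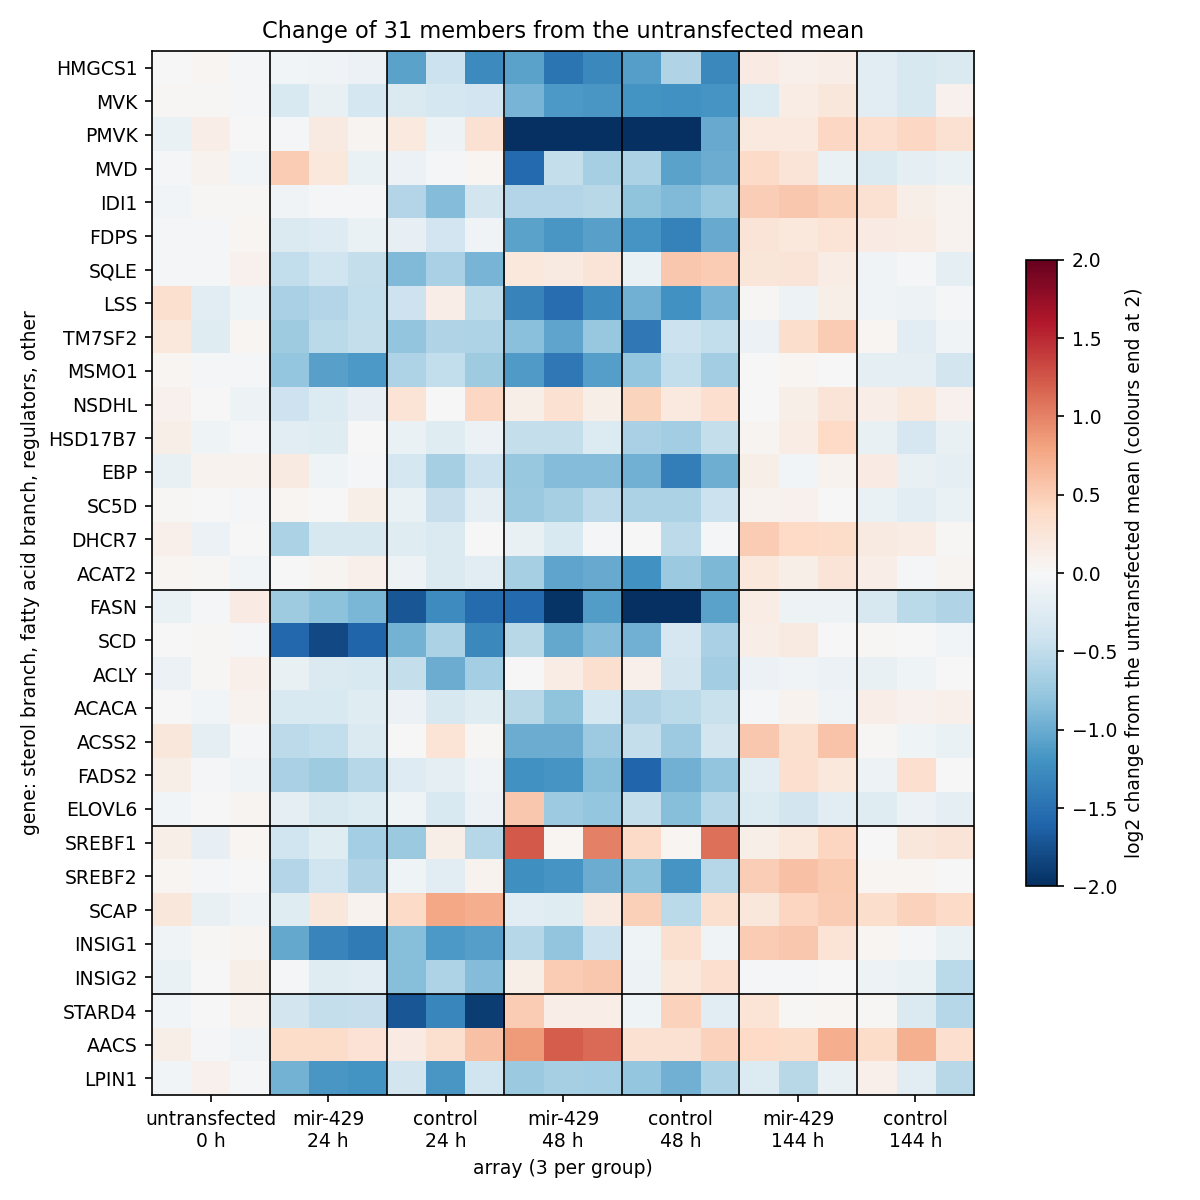
Log2 change of each of the 31 genes (rows, ordered as sterol branch, fatty acid branch, regulators and other members) from its untransfected mean on each of 21 arrays (columns, 3 per group, with mir-429 beside control at each time). Blue is lower and red higher, and colours end at 2 in either direction. The sterol rows are mostly blue at 48 h in both arms, except SQLE and NSDHL, which are slightly above 0. In mir-429 cells at 144 h all 16 sterol means lie above the untransfected mean, by 0.01 to 0.50, and 2 of the 16 were called. Of all genes tested, 46.8% lie above it in that group.

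The comparison the study was built on sets mir-429 against the control miRNA at the same time. At 24 h 14 members were called, 8 higher and 6 lower, against 15.0% and 11.6% of all genes tested. With the 3' minus 5' signal as a covariate, 1 higher and 1 lower were called, STARD4 and SCD, against 4.77% of all genes called in either direction with that covariate. The arms did not overlap in that signal at 24 h, so the covariate fit separates it poorly from the arm. Without mir-429 24 h replicate 1 or 3 the total was 9. All genes were then 1322 higher and 927 lower, or 1602 and 1258, against 1937 and 1488 with all arrays. The summed linear signal of the 14 markers of other cell types was 296.7 to 330.2 in mir-429 and 352.1 to 409.9 in control arrays at 24 h, and its part in these calls was not tested. FABP4 was itself called lower with mir-429, at -0.50 ± 0.13 at 24 h (SE, limma adjusted p = 0.00867) and -0.91 ± 0.13 at 48 h (adjusted p = 5.73e-05), and APOA1 was at -0.30 ± 0.19 at 24 h (limma adjusted p = 0.27). At 48 h 5 members were called, 2 higher and 3 lower, against 9.32% and 11.3% of all genes. That total was 3 without control 48 h replicate 3 or mir-429 48 h replicate 2, and 1 when only these 6 arrays were fitted. The fit of 6 arrays called 404 of all genes higher and 512 lower, against 1200 and 1449. At 144 h 4 members were called, all higher, against 1.48% of all genes called higher and 4.37% called lower. At an unadjusted p under 0.05, 11 members were higher and 0 lower at 144 h, against 5.94% and 13.6% of all genes. After cyclic loess scaling all genes split into 320 higher and 410 lower at 144 h, against 191 higher and 563 lower as deposited, while the same 4 members were called. The 144 h total changed with single arrays and with the covariate. It was 1, ACSS2, with the 3' minus 5' covariate, against 4.54% of all genes in either direction. Leaving out mir-429 144 h replicate 1, 2 or 3 gave 2, 1 or 2 calls, and leaving out control 144 h replicate 1, 2 or 3 gave 2, 0 or 0. Without control 144 h replicate 2 or 3, all genes were 94 higher and 232 lower, or 87 and 317.

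The calls were split by branch. At 24 h the sterol branch had 4 members higher and 2 lower of 16, and the fatty acid branch 2 higher and 2 lower of 7. At 48 h 1 sterol member was lower, and 1 fatty acid member was higher and 1 lower. At 144 h 1 member of each branch was higher and none lower, beside 2 regulators. Of all genes tested, 15.0% were higher and 11.6% lower at 24 h, 9.32% and 11.3% at 48 h, and 1.48% and 4.37% at 144 h. The median change of the sterol members was 0.08 at 24 h, -0.03 at 48 h and 0.24 at 144 h. That of the fatty acid members was -0.08, 0.03 and 0.04, and that of all genes tested -0.02, -0.01 and -0.04. At 144 h 14 of 16 sterol and 4 of 7 fatty acid members had a change above 0, against 42.8% of all genes. In 13 of the 31 members all mir-429 arrays lay above all control arrays at 144 h, 8 of them sterol enzymes, against 13.0% of all genes. In 1 member, the acetyl-CoA carboxylase ACACA of the fatty acid branch, they all lay below, against 20.9% of all genes. The summed signal of the 14 markers of other cell types moved with the arms at 144 h too, at 1342 to 1380 in mir-429, 758.3 to 993.3 in control and 1023 to 1117 in untransfected arrays. CDH5 made up 71.6 to 89.0% of it in these groups, and its part in the member changes was not tested.

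**Figure D3:**
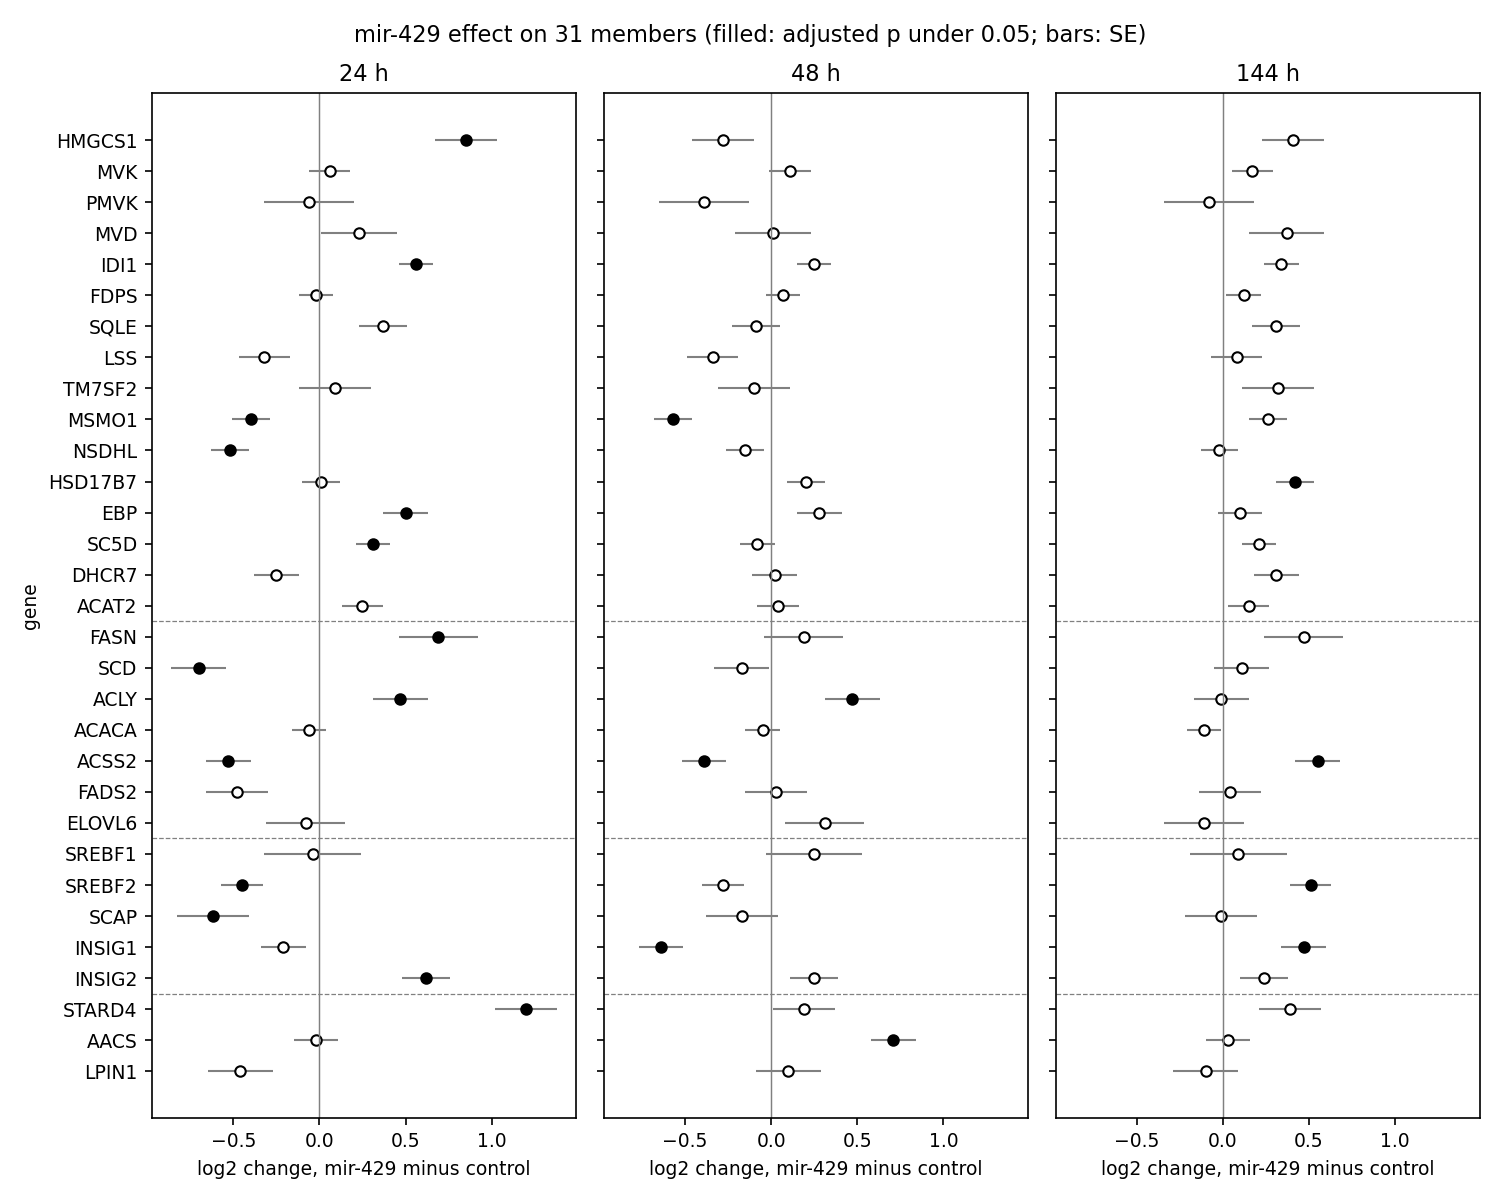
Log2 change of each of the 31 genes (rows) in mir-429 minus control cells at 24, 48 and 144 h, with bars for the SE from limma (3 arrays per group) and filled points for an adjusted p under 0.05. Filled points lie on both sides of 0 at 24 and 48 h, 14 and 5 in number, and on the positive side at 144 h, where there are 4.

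SREBF2, the SREBP gene best known for sterol synthesis, was lower with mir-429 at 24 h and higher at 144 h. At 24 h SREBF2 stood at 8.01, 8.20 and 7.99 in mir-429 cells, against 8.50, 8.39 and 8.67 in control cells. At 48 h SREBF2 stood at 7.37, 7.41 and 7.60 in mir-429 cells, against 7.78, 7.42 and 8.02 in control cells. At 144 h SREBF2 stood at 9.08, 9.18 and 9.11 in mir-429 cells, against 8.64, 8.63 and 8.58 in control cells, and untransfected cells had 8.63, 8.55 and 8.60. Every mir-429 array lay below the control arrays at 24 h and above them and the untransfected arrays at 144 h, and the arms overlapped at 48 h. The change was -0.45 ± 0.12 (SE, limma adjusted p = 0.0106) at 24 h, -0.28 ± 0.12 (adjusted p = 0.124) at 48 h and 0.51 ± 0.12 (adjusted p = 0.0186) at 144 h. SREBF2 was not called at 24 h with the 3' minus 5' covariate (limma adjusted p = 0.16), nor without control replicate 3 of that time (limma adjusted p = 0.0645). SREBF2 was not called at 144 h with the 3' minus 5' covariate (limma adjusted p = 0.0507), nor without mir-429 replicate 2 or control replicate 2 or 3 of that time (limma adjusted p from 0.0677 to 0.0748). The mean of its probe sets ended that call too (limma adjusted p = 0.211). The 2 dimmer SREBF2 probe sets gave -0.34 and -0.57 at 24 h, 0.07 and 0.36 at 48 h, and 0.35 and 0.17 at 144 h.

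SREBF1, whose product drives fatty acid genes, passed no mir-429 test against control. SREBF1 at 24 h was at 5.40, 5.56 and 5.12 in mir-429 cells, against 5.05, 5.92 and 5.22 in control cells. SREBF1 at 48 h was at 7.02, 5.83 and 6.81 in mir-429 cells, against 6.18, 5.84 and 6.90 in control cells. SREBF1 at 144 h was at 5.92, 6.0 and 6.23 in mir-429 cells, against 5.81, 6.02 and 6.06 in control cells, and untransfected cells had 5.92, 5.63 and 5.84. The arms overlapped at every time, with changes of -0.04 ± 0.28 (SE, limma adjusted p = 0.939) at 24 h, 0.25 ± 0.28 (adjusted p = 0.607) at 48 h and 0.09 ± 0.28 (adjusted p = 0.911) at 144 h. Spread was wide at 48 h, where the mir-429 arrays covered more than 1 log2 unit. A dimmer SREBF1 probe set, above the array median on 14 arrays, gave -0.25 at 24 h, 0.65 at 48 h and 0.08 at 144 h. In control against untransfected cells at 48 h it changed by -0.56, and the probe set used by 0.51.

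SCAP, the sterol-sensing escort of SREBP, was lower with mir-429 at 24 h. In SCAP the 24 h signals were 7.85, 8.32 and 8.17 in mir-429 cells, against 8.49, 8.88 and 8.83 in control cells. In SCAP the 48 h signals were 7.89, 7.86 and 8.28 in mir-429 cells, against 8.57, 7.56 and 8.42 in control cells. In SCAP the 144 h signals were 8.33, 8.53 and 8.60 in mir-429 cells, against 8.45, 8.56 and 8.49 in control cells, and untransfected cells had 8.32, 7.95 and 8.03. At 24 h the groups did not overlap, and the control arrays stood above the untransfected ones while the mir-429 arrays did not. The change was -0.62 ± 0.21 (SE, limma adjusted p = 0.034) at 24 h, -0.17 ± 0.21 (adjusted p = 0.627) at 48 h and -0.01 ± 0.21 (adjusted p = 0.986) at 144 h. SCAP was not called at 24 h with the 3' minus 5' covariate (limma adjusted p = 0.743), nor without mir-429 replicate 1 or 3 or control replicate 2 or 3 of that time (limma adjusted p from 0.061 to 0.159).

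INSIG1, an anchor of SCAP and itself a classical SREBP target, was lower at 48 h and higher at 144 h. For INSIG1 the 24 h arrays read 10.24, 9.94 and 9.85 in mir-429 cells, against 10.40, 10.11 and 10.15 in control cells. For INSIG1 the 48 h arrays read 10.68, 10.47 and 10.83 in mir-429 cells, against 11.17, 11.57 and 11.18 in control cells. For INSIG1 the 144 h arrays read 11.77, 11.79 and 11.53 in mir-429 cells, against 11.30, 11.24 and 11.13 in control cells, and untransfected cells had 11.18, 11.28 and 11.31. In control cells INSIG1 was near the untransfected level at 48 h, whereas every mir-429 array was below it. The change was -0.21 ± 0.13 (SE, limma adjusted p = 0.271) at 24 h, -0.64 ± 0.13 (adjusted p = 0.002) at 48 h and 0.47 ± 0.13 (adjusted p = 0.042) at 144 h. INSIG1 was not called at 144 h with the 3' minus 5' covariate (limma adjusted p = 0.129), nor without mir-429 replicate 1 or 2 or control replicate 1, 2 or 3 of that time (limma adjusted p from 0.075 to 0.158). INSIG1 was not called at 48 h when only the groups compared were fitted (limma adjusted p = 0.0625). The 2 other INSIG1 probe sets gave 0.10 and -0.75 at 24 h, -0.84 and -0.47 at 48 h, and 0.76 and 0.72 at 144 h.

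INSIG2, the second SCAP anchor, was higher with mir-429 at 24 h. For INSIG2 the 24 h arrays read 8.28, 8.07 and 8.08 in mir-429 cells, against 7.45, 7.69 and 7.44 in control cells. For INSIG2 the 48 h arrays read 8.43, 8.82 and 8.84 in mir-429 cells, against 8.21, 8.51 and 8.64 in control cells. For INSIG2 the 144 h arrays read 8.26, 8.28 and 8.30 in mir-429 cells, against 8.20, 8.18 and 7.76 in control cells, and untransfected cells had 8.18, 8.32 and 8.42. The mir-429 arrays at 24 h lay close to the untransfected ones and the control arrays below both. The change was 0.62 ± 0.14 (SE, limma adjusted p = 0.00378) at 24 h, 0.25 ± 0.14 (adjusted p = 0.249) at 48 h and 0.24 ± 0.14 (adjusted p = 0.393) at 144 h. INSIG2 was not called at 24 h with the 3' minus 5' covariate (limma adjusted p = 0.422). The INSIG genes thus gave different patterns, with INSIG1 called at 48 and 144 h and INSIG2 at 24 h, and the difference between them was not tested.

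**Figure D4:**
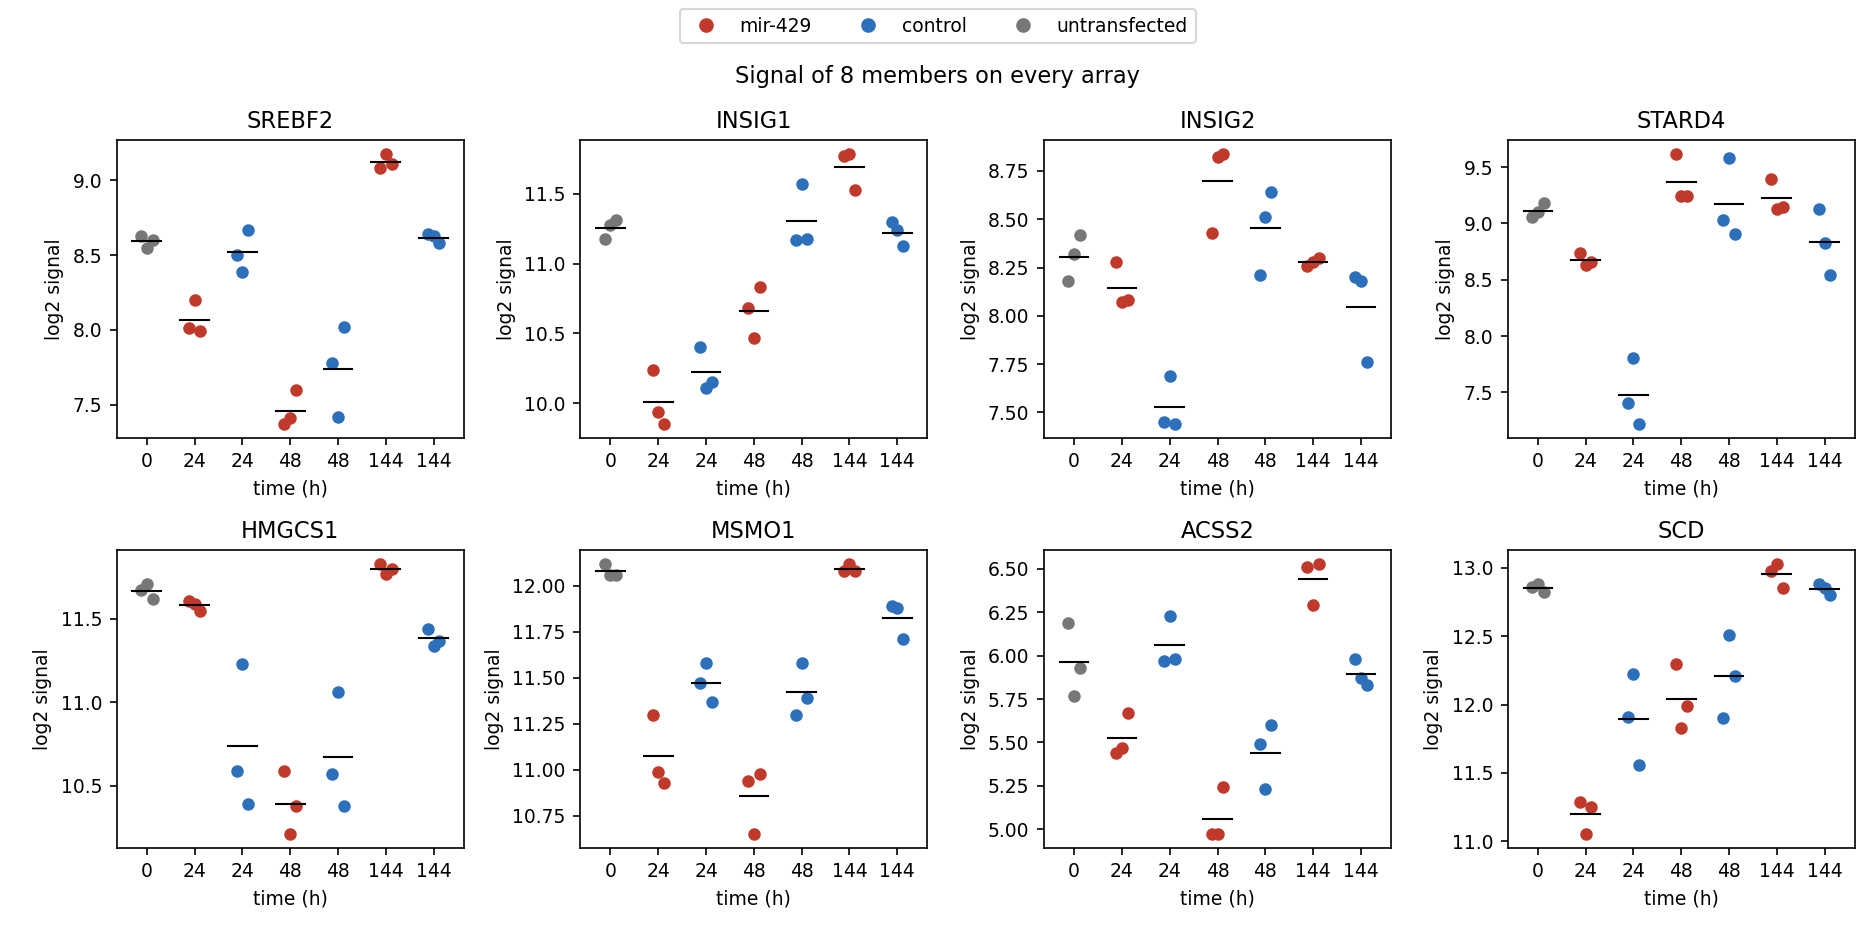
Log2 signal (vertical axis) of SREBF2, INSIG1, INSIG2, STARD4, HMGCS1, MSMO1, ACSS2 and SCD on each of 21 arrays by time in hours, with lines for the mean of 3 arrays and mir-429 to the left of control at each time. Vertical axes differ between genes and do not start at 0. The mir-429 points of SREBF2, INSIG1 and ACSS2 lie above all control points at 144 h, and those of STARD4 and HMGCS1 do so at 24 h.

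Among the early sterol enzymes, HMGCS1, which joins acetyl-CoA and acetoacetyl-CoA, and IDI1, the isomerase of the isoprenoid units, were higher at 24 h. HMGCS1 at 24 h read 11.61, 11.59 and 11.55 in mir-429 cells, against 10.59, 11.23 and 10.39 in control cells. HMGCS1 at 48 h read 10.59, 10.21 and 10.38 in mir-429 cells, against 10.57, 11.06 and 10.38 in control cells. HMGCS1 at 144 h read 11.83, 11.77 and 11.80 in mir-429 cells, against 11.44, 11.34 and 11.37 in control cells, and untransfected cells had 11.67, 11.71 and 11.62. The 24 h mir-429 arrays were close to untransfected cells, the control arrays were lower and scattered, and at 48 h both arms were low. The HMGCS1 change was 0.85 ± 0.18 (SE, limma adjusted p = 0.00182) at 24 h, -0.28 ± 0.18 (adjusted p = 0.304) at 48 h and 0.41 ± 0.18 (adjusted p = 0.197) at 144 h. HMGCS1 was not called at 24 h with the 3' minus 5' covariate (limma adjusted p = 0.0893). A second HMGCS1 probe set gave 0.25 at 24 h. IDI1 at 24 h read 11.55, 11.60 and 11.60 in mir-429 cells, against 11.04, 10.76 and 11.26 in control cells. IDI1 at 48 h read 11.03, 11.04 and 11.06 in mir-429 cells, against 10.81, 10.73 and 10.86 in control cells. IDI1 at 144 h read 12.11, 12.16 and 12.09 in mir-429 cells, against 11.92, 11.74 and 11.69 in control cells, and untransfected cells had 11.56, 11.65 and 11.65. The mir-429 arrays of IDI1 lay above the control arrays at all 3 times, though only the 24 h change was called. It was 0.56 ± 0.10 (SE, limma adjusted p = 0.000683) at 24 h, 0.25 ± 0.10 (adjusted p = 0.107) at 48 h and 0.34 ± 0.10 (adjusted p = 0.0622) at 144 h. IDI1 was not called at 24 h with the 3' minus 5' covariate (limma adjusted p = 0.0865), nor with the mean of its probe sets (limma adjusted p = 0.821). A second bright IDI1 probe set gave 0.57 at 24 h and 2 dim ones gave -0.37 and -0.58. The 2 bright ones and the dim one at -0.37 are of a kind that can bind related transcripts.

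MSMO1, NSDHL and HSD17B7 work together to strip methyl groups from the sterol ring. MSMO1 and NSDHL were called lower at 24 h, MSMO1 alone was called at 48 h and HSD17B7 alone at 144 h. Differences between these genes were not tested. MSMO1 at 24 h read 11.30, 10.99 and 10.93 in mir-429 cells, against 11.47, 11.58 and 11.37 in control cells. MSMO1 at 48 h read 10.94, 10.65 and 10.98 in mir-429 cells, against 11.30, 11.58 and 11.39 in control cells. MSMO1 at 144 h read 12.08, 12.12 and 12.08 in mir-429 cells, against 11.89, 11.88 and 11.71 in control cells, and untransfected cells had 12.12, 12.06 and 12.06. It was below control at 24 and 48 h in every mir-429 array and above control in every one at 144 h. The MSMO1 change was -0.40 ± 0.11 (SE, limma adjusted p = 0.0137) at 24 h, -0.57 ± 0.11 (adjusted p = 0.0014) at 48 h and 0.26 ± 0.11 (adjusted p = 0.196) at 144 h. MSMO1 was not called at 24 h with the 3' minus 5' covariate (limma adjusted p = 0.107), nor without mir-429 replicate 2 or 3 of that time (limma adjusted p from 0.0556 to 0.0703). Its 48 h call ended when only the groups compared were fitted (limma adjusted p = 0.0629). NSDHL at 24 h read 10.07, 10.20 and 10.31 in mir-429 cells, against 10.76, 10.48 and 10.90 in control cells. NSDHL at 48 h read 10.60, 10.79 and 10.59 in mir-429 cells, against 10.93, 10.67 and 10.81 in control cells. NSDHL at 144 h read 10.48, 10.60 and 10.74 in mir-429 cells, against 10.62, 10.69 and 10.56 in control cells, and untransfected cells had 10.57, 10.49 and 10.38. Only its 24 h arrays were clear of each other, with all mir-429 values below all control values. The NSDHL change was -0.52 ± 0.11 (SE, limma adjusted p = 0.00275) at 24 h, -0.15 ± 0.11 (adjusted p = 0.42) at 48 h and -0.02 ± 0.11 (adjusted p = 0.963) at 144 h. NSDHL was not called at 24 h with the 3' minus 5' covariate (limma adjusted p = 0.289). A second NSDHL probe set gave -0.35 at 24 h.

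HSD17B7, the reductase of the demethylating complex, was called at 144 h. HSD17B7 at 24 h read 8.94, 8.93 and 9.17 in mir-429 cells, against 9.04, 8.92 and 9.06 in control cells. HSD17B7 at 48 h read 8.69, 8.70 and 8.89 in mir-429 cells, against 8.52, 8.47 and 8.70 in control cells. HSD17B7 at 144 h read 9.22, 9.32 and 9.57 in mir-429 cells, against 9.02, 8.83 and 9.02 in control cells, and untransfected cells had 9.29, 9.08 and 9.14. All mir-429 arrays lay above the control arrays at 144 h, and at 24 h the arms overlapped. The HSD17B7 change was 0.01 ± 0.11 (SE, limma adjusted p = 0.97) at 24 h, 0.20 ± 0.11 (adjusted p = 0.237) at 48 h and 0.42 ± 0.11 (adjusted p = 0.0319) at 144 h. HSD17B7 was not called at 144 h with the 3' minus 5' covariate (limma adjusted p = 0.0524), nor without mir-429 replicate 2 or 3 or control replicate 1, 2 or 3 of that time (limma adjusted p from 0.0595 to 0.161). It has a single probe set, of the kind that can bind related transcripts.

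EBP, the sterol isomerase, and SC5D, the sterol desaturase, act late in the branch, and both were higher at 24 h. EBP at 24 h read 12.11, 11.84 and 11.88 in mir-429 cells, against 11.57, 11.26 and 11.49 in control cells. EBP at 48 h read 11.17, 11.06 and 11.06 in mir-429 cells, against 10.97, 10.54 and 10.95 in control cells. EBP at 144 h read 12.04, 11.87 and 12.0 in mir-429 cells, against 12.09, 11.77 and 11.74 in control cells, and untransfected cells had 11.78, 12.0 and 11.99. The 24 h control arrays were below the untransfected ones, and the mir-429 arrays were not. The EBP change was 0.50 ± 0.13 (SE, limma adjusted p = 0.00863) at 24 h, 0.28 ± 0.13 (adjusted p = 0.155) at 48 h and 0.10 ± 0.13 (adjusted p = 0.737) at 144 h. EBP was not called at 24 h with the 3' minus 5' covariate (limma adjusted p = 0.471), nor without mir-429 replicate 1 of that time (limma adjusted p = 0.0535). The mean of its probe sets ended that call too. At 24 h 2 dimmer EBP probe sets gave 1.27 and 1.36. SC5D at 24 h read 10.04, 10.02 and 10.12 in mir-429 cells, against 9.87, 9.54 and 9.83 in control cells. SC5D at 48 h read 9.26, 9.35 and 9.49 in mir-429 cells, against 9.38, 9.38 and 9.58 in control cells. SC5D at 144 h read 10.07, 10.09 and 10.0 in mir-429 cells, against 9.88, 9.79 and 9.87 in control cells, and untransfected cells had 10.03, 10.01 and 9.98. The SC5D arms were clear of each other at 24 and 144 h and overlapped at 48 h. The SC5D change was 0.31 ± 0.10 (SE, limma adjusted p = 0.0208) at 24 h, -0.08 ± 0.10 (adjusted p = 0.643) at 48 h and 0.21 ± 0.10 (adjusted p = 0.237) at 144 h. SC5D was not called at 24 h with the 3' minus 5' covariate (limma adjusted p = 0.376), nor without mir-429 replicate 1 or 3 or control replicate 2 of that time (limma adjusted p from 0.0504 to 0.0881). A second SC5D probe set, with a mean of 3.28 and above the array median on only 3 arrays, gave 0.64 at 24 h.

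The other 9 sterol enzymes read were called at no time against control. They were the thiolase ACAT2, the mevalonate kinases MVK and PMVK, the decarboxylase MVD, FDPS, SQLE, LSS, and the sterol reductases TM7SF2 and DHCR7. Together with the other 5 members never called, their changes ran from -0.48 to 0.37. SQLE came nearest, at 0.37 ± 0.14 (SE, limma adjusted p = 0.0527) at 24 h. Its mir-429 arrays lay above the control arrays at 24 h and at 144 h, where the change was 0.31 ± 0.14 (adjusted p = 0.213). The dimmer SQLE probe sets gave -0.38, 0.74 and 0.36 at 24 h, so the sign depended on the probe set.

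In the fatty acid branch, SCD, which desaturates stearoyl-CoA, was lower with mir-429 at 24 h. SCD at 24 h read 11.29, 11.05 and 11.25 in mir-429 cells, against 11.91, 12.22 and 11.56 in control cells. SCD at 48 h read 12.30, 11.83 and 11.99 in mir-429 cells, against 11.90, 12.51 and 12.21 in control cells. SCD at 144 h read 12.98, 13.03 and 12.85 in mir-429 cells, against 12.88, 12.85 and 12.80 in control cells, and untransfected cells had 12.86, 12.88 and 12.82. Both arms were below untransfected cells at 24 h, the mir-429 arrays by more, and at 144 h both arms were near the untransfected values. The SCD change was -0.70 ± 0.16 (SE, limma adjusted p = 0.00352) at 24 h, -0.17 ± 0.16 (adjusted p = 0.519) at 48 h and 0.11 ± 0.16 (adjusted p = 0.771) at 144 h. With the 3' minus 5' covariate the 24 h value was -0.90 (limma adjusted p = 0.036). The 3 other SCD probe sets gave larger falls at 24 h, of -2.14, -1.16 and -1.27.

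FASN, the fatty acid synthase, moved the other way at 24 h. FASN at 24 h read 6.78, 6.66 and 6.57 in mir-429 cells, against 5.77, 6.23 and 5.94 in control cells. FASN at 48 h read 5.93, 5.52 and 6.37 in mir-429 cells, against 5.35, 5.47 and 6.42 in control cells. FASN at 144 h read 7.63, 7.39 and 7.38 in mir-429 cells, against 7.17, 6.94 and 6.88 in control cells, and untransfected cells had 7.35, 7.46 and 7.65. At 24 h both arms lay below untransfected cells, the control arrays by more. The FASN change was 0.69 ± 0.23 (SE, limma adjusted p = 0.0325) at 24 h, 0.19 ± 0.23 (adjusted p = 0.625) at 48 h and 0.47 ± 0.23 (adjusted p = 0.274) at 144 h. FASN was not called at 24 h with the 3' minus 5' covariate (limma adjusted p = 0.811), nor without mir-429 replicate 1, 2 or 3 or control replicate 1 or 3 of that time (limma adjusted p from 0.0525 to 0.115). The mean of its probe sets ended that call too. A second FASN probe set gave 0.16 at 24 h.

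ACLY and ACSS2 both make acetyl-CoA, from citrate and from acetate, and they differed in direction. ACLY at 24 h read 11.47, 11.33 and 11.32 in mir-429 cells, against 11.14, 10.63 and 10.94 in control cells. ACLY at 48 h read 11.61, 11.77 and 11.94 in mir-429 cells, against 11.73, 11.26 and 10.93 in control cells. ACLY at 144 h read 11.51, 11.56 and 11.50 in mir-429 cells, against 11.47, 11.54 and 11.61 in control cells, and untransfected cells had 11.50, 11.65 and 11.72. The arms were clear of each other at 24 h and overlapped at the later times. The ACLY change was 0.47 ± 0.16 (SE, limma adjusted p = 0.0356) at 24 h, 0.47 ± 0.16 (adjusted p = 0.0431) at 48 h and -0.01 ± 0.16 (adjusted p = 0.983) at 144 h. ACLY was not called at 24 h with the 3' minus 5' covariate (limma adjusted p = 0.106), nor without mir-429 replicate 1, 2 or 3 or control replicate 2 or 3 of that time (limma adjusted p from 0.061 to 0.139). The mean of its probe sets, cyclic loess and quantile scaling ended that call too, and its highest limma adjusted p over the alternatives was 0.769. ACLY was not called at 48 h with the 3' minus 5' covariate (limma adjusted p = 0.207), nor without mir-429 replicate 2 or 3 or control replicate 2 or 3 of that time (limma adjusted p from 0.0884 to 0.21). Its 2 dimmer probe sets had the opposite sign at 24 h, at -0.19 and -0.16, and the same sign at 48 h, at 0.15 and 0.32. ACSS2 at 24 h read 5.44, 5.47 and 5.67 in mir-429 cells, against 5.97, 6.23 and 5.98 in control cells. ACSS2 at 48 h read 4.97, 4.97 and 5.24 in mir-429 cells, against 5.49, 5.23 and 5.60 in control cells. ACSS2 at 144 h read 6.51, 6.29 and 6.53 in mir-429 cells, against 5.98, 5.87 and 5.83 in control cells, and untransfected cells had 6.19, 5.77 and 5.93. All its mir-429 arrays were below control at 24 h and above control and untransfected cells at 144 h, and at 48 h the arms touched. The ACSS2 change was -0.53 ± 0.13 (SE, limma adjusted p = 0.00521) at 24 h, -0.39 ± 0.13 (adjusted p = 0.0402) at 48 h and 0.55 ± 0.13 (adjusted p = 0.0154) at 144 h. ACSS2 was not called at 24 h with the 3' minus 5' covariate (limma adjusted p = 0.307). ACSS2 was not called at 48 h without mir-429 replicate 1 or 2 or control replicate 1 or 3 of that time (limma adjusted p from 0.0986 to 0.14). ACSS2 was not called at 144 h without mir-429 replicate 1 or 3 or control replicate 2 or 3 of that time (limma adjusted p from 0.0561 to 0.0682). ACACA, which makes malonyl-CoA, the desaturase FADS2 and the elongase ELOVL6 were called at no time against control.

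STARD4, a soluble carrier of cholesterol between membranes, had the largest change of any member at 24 h. STARD4 at 24 h read 8.74, 8.63 and 8.66 in mir-429 cells, against 7.41, 7.81 and 7.22 in control cells. STARD4 at 48 h read 9.62, 9.24 and 9.24 in mir-429 cells, against 9.03, 9.58 and 8.91 in control cells. STARD4 at 144 h read 9.39, 9.13 and 9.15 in mir-429 cells, against 9.13, 8.83 and 8.54 in control cells, and untransfected cells had 9.06, 9.10 and 9.18. At 24 h the control arrays were lowest, and the mir-429 arrays lay between them and the untransfected ones. The STARD4 change was 1.20 ± 0.18 (SE, limma adjusted p = 0.000118) at 24 h, 0.19 ± 0.18 (adjusted p = 0.516) at 48 h and 0.39 ± 0.18 (adjusted p = 0.237) at 144 h. With the 3' minus 5' covariate the 24 h value was 1.03 (limma adjusted p = 0.0368).

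AACS, which makes acetoacetyl-CoA from ketone bodies, was higher with mir-429 at 48 h. AACS at 24 h read 8.15, 8.16 and 8.07 in mir-429 cells, against 7.95, 8.10 and 8.38 in control cells. AACS at 48 h read 8.64, 9.0 and 8.92 in mir-429 cells, against 8.09, 8.09 and 8.25 in control cells. AACS at 144 h read 8.19, 8.16 and 8.52 in mir-429 cells, against 8.16, 8.50 and 8.12 in control cells, and untransfected cells had 7.90, 7.75 and 7.71. The arms were separate at 48 h alone. The AACS change was -0.02 ± 0.13 (SE, limma adjusted p = 0.945) at 24 h, 0.71 ± 0.13 (adjusted p = 0.000912) at 48 h and 0.03 ± 0.13 (adjusted p = 0.943) at 144 h. LPIN1, a phosphatidate phosphatase of glycerolipid synthesis, was not called, and its largest change was -0.46 ± 0.19 (SE, limma adjusted p = 0.0751) at 24 h.

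Averaged over the 3 times (9 arrays per arm), 9 members were higher and 3 lower, against 12.6% and 15.4% of all genes tested. The higher ones were STARD4, FASN, IDI1, INSIG2, HMGCS1, ACLY, EBP, AACS and HSD17B7, from 0.59 ± 0.10 for STARD4 down to 0.21 ± 0.06 for HSD17B7. The lower ones were SCD at -0.25 ± 0.09 (SE, limma adjusted p = 0.0497), NSDHL at -0.23 ± 0.07 (adjusted p = 0.0151) and MSMO1 at -0.23 ± 0.07 (adjusted p = 0.0114). SREBF2, INSIG1 and ACSS2, whose changes had opposite signs at different times, averaged -0.07 ± 0.07, -0.13 ± 0.08 and -0.12 ± 0.07 and were not called.

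Whether the mir-429 effect itself changed between times was tested as a difference of differences. Between 24 and 48 h 1 member moved up and 2 moved down, against 1.75% and 3.14% of all genes. AACS moved by 0.73 ± 0.19 (SE, limma adjusted p = 0.0353), HMGCS1 by -1.12 ± 0.25 (adjusted p = 0.0192) and STARD4 by -1.01 ± 0.25 (adjusted p = 0.0322). With the 3' minus 5' covariate none of the 3 was called, against 0.0155% of all genes in either direction, and the total depended on single arrays. It was 0 without mir-429 24 h replicate 1 or control 24 h replicate 3, and 5 without control 24 h replicate 2. It was 1 without replicate 2 or 3 of mir-429 at 24 h or at 48 h, or replicate 2 of control at 48 h. All genes moved too, at 225 higher and 405 lower with all arrays. They were 46 and 119 without mir-429 24 h replicate 1, and 622 and 1351 without control 24 h replicate 2. Between 48 and 144 h 4 members moved up and 1 down, against 3.84% and 5.62% of all genes. INSIG1 moved by 1.12 ± 0.19 (SE, limma adjusted p = 0.000894), ACSS2 by 0.93 ± 0.18 (adjusted p = 0.00271), MSMO1 by 0.83 ± 0.16 (adjusted p = 0.00245) and SREBF2 by 0.79 ± 0.17 (adjusted p = 0.00701). The SREBF2 move depended on the probe set. Its 2 dimmer ones gave 0.07 and 0.36 at 48 h and 0.35 and 0.17 at 144 h, so the second moved down. AACS moved back by -0.68 ± 0.19 (SE, limma adjusted p = 0.0291). With the covariate 3 of these 5 were called, against 6.15% of all genes in either direction. For INSIG1, ACSS2 and MSMO1 the effect was below 0 and called at 48 h, and at 144 h it was above 0 in all 3 and called in INSIG1 and ACSS2.

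Around these genes, 4 further lists of the same metabolism held 9, 9, 13 and 21 genes, of which 6, 8, 11 and 18 could be tested. Their counts are to be read against all genes tested, of which 15.0% were higher and 11.6% lower at 24 h, 9.32% and 11.3% at 48 h, and 1.48% and 4.37% at 144 h. Of the 6 genes that process SREBP or degrade sterol enzymes, 3 were higher and 1 lower at 24 h, 2 and 1 at 48 h, and 1 and 0 at 144 h. ERLIN1 and ERLIN2, membrane proteins of the endoplasmic reticulum that take part in sterol-driven degradation, were at 1.29 ± 0.11 and 1.58 ± 0.14 at 24 h and at 1.27 ± 0.11 and 1.57 ± 0.14 at 48 h. ERLIN2 was at 0.51 ± 0.14 (SE, limma adjusted p = 0.0362) at 144 h. MBTPS2, the membrane protease that frees SREBP, was at -0.77 ± 0.11 (SE, limma adjusted p = 8.05e-05) at 24 h, and the ubiquitin ligase RNF139 at -0.56 ± 0.12 (SE, limma adjusted p = 0.00203) at 48 h. Of the 8 genes of the isoprenoid side branches, 2 were higher at 24 h and 2 at 48 h, with 0 lower. They were PGGT1B, a subunit of a geranylgeranyl transferase, and DHDDS, of dolichol synthesis, at 0.55 ± 0.12 and 0.57 ± 0.14 at 24 h, and PGGT1B and GGPS1, the geranylgeranyl pyrophosphate synthase, at 0.57 ± 0.12 and 0.51 ± 0.14 at 48 h.

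Of the 11 genes of sterol uptake, storage and efflux, 5 were higher and 0 lower at 24 h (15.0% and 11.6% of all genes), 3 and 2 at 48 h (9.32% and 11.3%), and 1 and 0 at 144 h (1.48% and 4.37%). At 24 h the ubiquitin ligase MYLIP was at 0.88 ± 0.15 (SE, limma adjusted p = 0.000411), TMEM97 at 0.52 ± 0.11 and the oxysterol-binding OSBP at 0.53 ± 0.14. At 48 h the cholesterol exporter ABCA1 was at 1.33 ± 0.28 (SE, limma adjusted p = 0.00227), the oxysterol receptor NR1H3 at 0.72 ± 0.18 and SOAT1, which esterifies cholesterol for storage, at -0.51 ± 0.11. NPC1, which moves cholesterol out of lysosomes, was at 0.62 ± 0.11 (SE, limma adjusted p = 0.00177) at 144 h. Of the 18 other fatty acid and glycerolipid genes, 5 were higher and 1 lower at 24 h, 1 and 1 at 48 h, and 1 and 0 at 144 h, with the same shares of all genes. The fatty acid elongase ELOVL7 was higher at each time, by 2.58 ± 0.13 (SE, limma adjusted p = 4.8e-10) at 24 h, 2.63 ± 0.13 (adjusted p = 1.37e-10) at 48 h and 0.82 ± 0.13 (adjusted p = 0.000732) at 144 h. The desaturase SCD5 was at 0.68 ± 0.20 and MID1IP1, a partner of the acetyl-CoA carboxylases, at 0.51 ± 0.16 at 24 h, and the malic enzyme ME1 at -0.46 ± 0.09 at 48 h.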

How the data were processed

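Total RNA of 21 HEY cell cultures was amplified and labelled with biotin by a 3' amplification kit and hybridised to HG-U133 Plus 2.0 arrays, per the labels' protocols. The deposited values are log2 signals per probe set made with RMA, per the submitters' processing notes. The RMA software is not given in the sources used here. No further scaling was applied. Of 54675 probe sets, 41097 carried 1 gene symbol in the platform annotation, 1801 several and 11777 none. Symbols were updated through Entrez identifiers to a RefSeq table of GRCh38.p14, which matched 99.9%. A gene was read from its brightest single-symbol probe set, by the mean of all arrays (19775 genes), and 12879 genes above the array median on at least 3 arrays were tested. The other 6896 were set aside. Precision is limited by the number of arrays, 3 per group.

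Each gene was fitted with lmFit and eBayes of limma 3.58.1 (R 4.3.3), with 7 group means, 14 residual degrees of freedom and 3.93 prior ones. They were two-sided, with Benjamini-Hochberg adjustment over all genes tested and a threshold of 0.05, for 12 comparisons. Changes are log2 differences ± SE, n = 3 arrays per group unless stated, with the spread pooled over groups. The median SD of the members was 0.08 in untransfected and 0.23 in control 48 h arrays. The script was checked on simulated data. Sequences came from RefSeq tables of GRCh38.p14.

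The labels number replicates alike in all groups, but in 0 of 21 pairs of groups did every same-numbered pair of arrays deviate together with a correlation over 0.1, so the main fit has no block. Alternatives were cyclic loess and quantile scaling, other filters, the mean of a gene's probe sets, fitting only the groups compared, a replicate block, the 3' minus 5' signal as a covariate, leaving out the 48 h arrays and leaving out each array. The members, the lists, the tests and the alternatives were chosen with earlier results of these data known. All 34 members were named. Every array's value was given for the 5 regulators and for the other members called in at least 1 single-time comparison of mir-429 with control. From the further lists up to 3 called genes of smallest p per comparison were named.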

Additional observations from a re-analysis of the deposited data

Results flagged for a closer look

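In 8 cases the mir-429 effect on a member differed between neighbouring times by the test of the difference itself in limma, given here with 3 arrays per group. The effect on AACS was higher at 48 h than at 24 h by 0.73 ± 0.19 (SE, adjusted p = 0.0353) and changed by -0.68 ± 0.19 (limma adjusted p = 0.0291) between 48 and 144 h. HMGCS1 and STARD4 had a smaller effect at 48 h than at 24 h, by -1.12 ± 0.25 and -1.01 ± 0.25 (limma adjusted p = 0.0192 and 0.0322). Between 48 and 144 h the effect on INSIG1 moved up by 1.12 ± 0.19, that on ACSS2 by 0.93 ± 0.18, that on MSMO1 by 0.83 ± 0.16 and that on SREBF2 by 0.79 ± 0.17 (limma adjusted p = 0.000894, 0.00271, 0.00245 and 0.00701). For SREBF2 the 2 dimmer probe sets went from 0.07 to 0.35 and from 0.36 to 0.17. The 3' minus 5' signal of the control probe sets also differed between these times, at 2.54 to 3.25 at 24 h, 8.45 to 8.73 at 48 h and 3.22 to 3.49 at 144 h in mir-429 arrays. In control arrays it was 4.0 to 4.43 at 24 h, 7.23 to 8.47 at 48 h and 3.39 to 4.31 at 144 h. With it as a covariate, none of the 3 differences between 24 and 48 h was called, and 3 of the 5 between 48 and 144 h were.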

How the results depend on the processing

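With the 3' minus 5' signal as a covariate, members called in mir-429 against control went to 2 at 24 h and 1 at 144 h, against 14 and 4 in the main setting, while 4.77% and 4.54% of all genes were called. The differences of effect went to 0 between 24 and 48 h and 3 between 48 and 144 h, against 3 and 5. Calls against untransfected cells went to 0 at 48 h for mir-429 and 0 for control, against 24 and 23, where 0.559% and 0.59% of all genes were called, and to 10 for control at 24 h, against 17. The cause was not tested. With no filter the count was 3 at 48 h, 2 at 144 h and 1 for the difference between 24 and 48 h, where 19775 genes shared the adjustment. All genes were then 1084 higher and 1344 lower at 48 h, 129 and 386 at 144 h, and 80 and 183 for that difference. In the main setting they were 1200 and 1449, 191 and 563, and 225 and 405. With only the groups compared in the fit, which leaves fewer arrays, the member count was 1 at 48 h and 0 for that difference. All genes in that fit were 404 higher and 512 lower at 48 h, and 17 and 41 for that difference. With the mean of probe sets that difference had 5 members, where 116 of 11804 genes were higher and 200 lower. Under the replicate block all genes were 1915 higher and 1452 lower at 24 h, 1179 and 1393 at 48 h, and 186 and 531 at 144 h. The block gave 15 members at 24 h, 4 at 48 h and 3 at 144 h. It ended the calls of ACLY at 48 h (limma adjusted p = 0.0539) and INSIG1 at 144 h (limma adjusted p = 0.0528), and their highest adjusted p over the alternatives was 0.253 and 0.158.

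Of the branch medians, sterol mir-429 against control was 0.15 at 24 h after cyclic loess and 0.17 at 144 h with the mean of probe sets, against 0.08 and 0.24. Control against untransfected cells at 48 h was -0.77 after cyclic loess and -0.79 after quantile scaling for sterol genes, against -0.86, while the median of all genes moved from -0.16 to -0.06 and -0.09. For fatty acid genes with the mean of probe sets it was -0.10 at 24 h and -0.45 at 48 h, against -0.22 and -0.64. The cause was not tested.

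Leaving out 1 array at a time, the members called in mir-429 against control were 9 to 13 at 24 h, 3 to 7 at 48 h, 0 to 2 at 144 h and 10 to 14 averaged. All genes called moved too. At 24 h they were 1322 higher and 927 lower without mir-429 replicate 1, and 2444 and 1589 without control replicate 2, against 1937 and 1488. At 144 h they were 94 higher and 232 lower without control replicate 2, against 191 and 563. The differences of effect had 0 to 5 and 4 to 7. Against untransfected cells mir-429 had 7 to 12 at 24 h, 22 to 24 at 48 h and 2 to 5 at 144 h, and control 12 to 15, 20 to 24 and 0 to 0. At 48 h the sterol median was -0.11 to 0.06 and the fatty acid median -0.09 to 0.19 in mir-429 against control, and the fatty acid median of control against untransfected cells was -0.65 to -0.53.

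Of 23 single-gene calls of mir-429 against control, 3 held under every alternative run (SCD and STARD4 at 24 h, AACS at 48 h) and 0 reversed. STARD4 and AACS have 1 probe set each, so the mean of probe sets read the same values for them. The covariate ended 16, leaving out some array 13, fitting only the groups compared 8 and the mean of probe sets 5. The covariate's signal did not overlap between the arms at 24 h, so that fit separates it poorly from the arm. The part of RNA quality in the lost calls was not tested. Of 13 calls with a second usable probe set, 20 of the 24 other probe sets had the same sign. Usable means above the array median on at least 3 arrays, and some of these probe sets, such as that of SC5D, lie near that limit. With 3 arrays per group the smallest change called at a single time was 0.31, that of SC5D at 24 h.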
